A study of Rattus norvegicus with 8 samples.

Results

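The enzymes that build glutathione and return it to its reduced form were followed through 9 probe sets of 4 genes, out of 8799 probe sets on a rat expression array. A probe set is a group of short probes for 1 transcript. The members were taken as every probe set annotated to Gclc, Gclm, Gss or Gsr alone: 1 for Gclc, 3 for Gclm, 2 for Gss and 3 for Gsr. Both Gss probe sets come from a single sequence record, as do 2 of the Gclm and 2 of the Gsr probe sets, so these are not independent measurements.

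The cells were primary pulmonary artery smooth muscle cells of adult Sprague-Dawley rats, grown from explants of arteries freed of endothelium and adventitia. RNA was measured on 8 arrays in 4 groups of 2: cells exposed to S-nitrosoglutathione (GSNO) for 1 h, for 2 h and for 4 h, and untreated control cells. The sources differ on the dose, 100 μmol/L in the design text and 100 mmol/L in the treatment protocol. The design text mentions a pair of separate cell preparations, but no label ties an array number to one, so p-values may measure only spread between arrays. The control group has no stated time, so time in culture and GSNO exposure cannot be told apart. The labels give no sex, pooling or passage.

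Glutathione is a tripeptide of glutamate, cysteine and glycine, and the main small thiol of the cell. Glutamate-cysteine ligase joins glutamate to cysteine and sets the pace of synthesis. Its catalytic subunit is encoded by Gclc and its modifier subunit, which improves substrate affinity and eases feedback inhibition, by Gclm. Glutathione synthetase, encoded by Gss, adds glycine. Glutathione reductase, encoded by Gsr, uses NADPH to turn oxidised glutathione back to its reduced form. GSNO is glutathione carrying a nitroso group on its sulfur and gives off nitric oxide. The transcription factor NRF2 (gene Nfe2l2) is known to drive many of these genes through the antioxidant response element (ARE).

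The catalytic subunit transcript was higher than in control cells at every time. The modifier subunit and the reductase did not pass in the main fit. They passed as higher at 4 h once the array number was added to that fit as a block. Glutathione synthetase showed no change that passed the test. In an analysis of all 4 groups with limma, adjusted over 5877 kept probe sets at a threshold of 0.05, Gclc was the 1 probe set of the 9 called at each of the 3 times. With the array number added as a replicate block, 6 of the 9 were called as higher at 4 h: Gclc, 2 of 3 for Gclm and 3 of 3 for Gsr. The share of all kept probe sets called at 4 h was 1.53% without the block, and 7.93% with it (4.25% as higher). The main fit was the one without the block, and the block was an alternative to it. The block is used because arrays of the same number deviated together and were scanned on the same day. With the experiment recorded for each array as the block instead, only Gclc and 1 Gsr probe set were called at 4 h. Fold changes below are of log2(signal + 21.1).

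**Figure D1:**
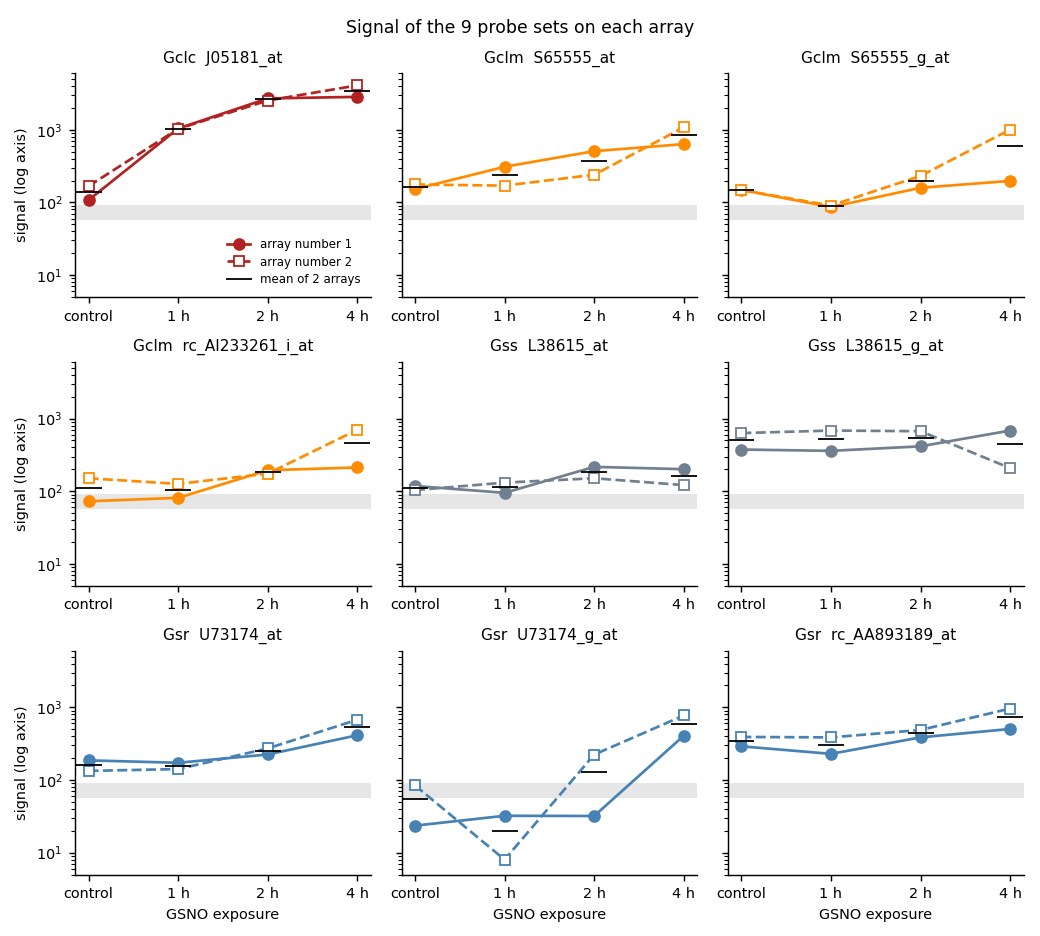
Signal (log axis) of each of the 9 probe sets on each of the 8 arrays, by GSNO exposure, with filled circles for arrays numbered 1, open squares for arrays numbered 2, black bars for their mean and a grey band for the range of the arrays' 40th percentiles. Gclc climbs on both array numbers from the first hour, Gclm and Gsr are highest at 4 h, and the brighter Gss probe set parts in opposite directions at 4 h.

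Gclc gave the widest separation. Its signal was 108 and 167 in control cells, 1041 and 1030.4 at 1 h, 2700.2 and 2527 at 2 h, and 2838 and 4084 at 4 h, each time for arrays numbered 1 and 2. No exposed array overlapped a control array, and the order control, 1 h, 2 h and 4 h held on both array numbers. The probe set lay at the 45.7 and 55.6 percentile of the control arrays and at the 93.8 and 95.8 percentile of the 4 h arrays.

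The log2 fold change of Gclc was 2.76 ± 0.28 (SE) at 1 h, 4.08 ± 0.28 at 2 h and 4.46 ± 0.28 at 4 h, with limma adjusted p = 0.00576, 0.000845 and 0.000769. The 95% interval at 4 h ran from 3.81 to 5.11. These 3 contrasts share the control arrays. The values ranked 22, 10 and 9 from the top of the 5877 kept probe sets. Of all kept probe sets, 0.527% were called at 1 h (0.493% as higher), 0.97% at 2 h (0.783% as higher) and 0.953% as higher at 4 h. With the block, where Gclc was again the 1 member called at 1 h and at 2 h, these shares were 1.34% (1.14% as higher) at 1 h and 3.16% (2.19% as higher) at 2 h. As ratios of signal, arrays numbered 1 gave 9.67 at 1 h, 25.1 at 2 h and 26.3 at 4 h. Arrays numbered 2 gave 6.15, 15.1 and 24.4 in the same order. The first hour thus held most of the log2 change on both array numbers. Without 1 of the 1 h arrays the adjusted p at 1 h was 0.0539 (without array number 1) or 0.0511 (without array number 2), while the fold change stayed at 2.75 and 2.77.

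Between neighbouring times, Gclc stood 1.32 ± 0.28 (SE) higher at 2 h than at 1 h, which did not pass (limma adjusted p = 0.925, and 0.0748 with the replicate block). At 4 h it stood 0.38 ± 0.28 above 2 h (adjusted p = 0.919, and 0.476 with the block; 95% interval without the block -0.27 to 1.03). The arrays numbered 1 gave 0.07 for this last step and those numbered 2 gave 0.69. Over the longer span from 1 h to 4 h, the difference of 1.70 was just outside the threshold without the block (adjusted p = 0.0517) and inside it with the block (adjusted p = 0.00216).

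Gclm, the modifier subunit, was read by 3 probe sets. Probe set S65555_at read 153 and 177 in control cells, 309 and 170.2 at 1 h, 508 and 241 at 2 h, and 635 and 1080.5 at 4 h. Both 2 h and both 4 h arrays were above both control arrays, and the 1 h arrays were not. On arrays numbered 1 the signal was higher at each later time, while on arrays numbered 2 the 1 h array lay just below its control and the 4 h array stood highest.

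Its partner S65555_g_at, from the same sequence record, read 149 and 148 in control cells, 86.3 and 90.6 at 1 h, 159 and 232 at 2 h, and 198 and 1005 at 4 h. Both 1 h arrays were below both control arrays, where S65555_at showed no such dip. The 4 h arrays of this probe set differed from each other more than the lower of them differed from control. Probe set rc_AI233261_i_at read 72.7 and 151 in control cells, 81.0 and 126 at 1 h, 194 and 175 at 2 h, and 212 and 700.2 at 4 h. Its 1 h arrays overlapped the control arrays and its 2 h and 4 h arrays did not.

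At 4 h the log2 fold change against control was 2.20 ± 0.44 (SE) for S65555_at, 1.69 ± 0.55 for rc_AI233261_i_at and 1.48 ± 0.62 for S65555_g_at. None passed without the block (limma adjusted p = 0.0594, 0.236 and 0.423). With the block the adjusted p was 0.00708, 0.0252 and 0.106, so 2 of the 3 rose. All 3 gave a larger value on arrays numbered 2 (2.48, 2.07 and 2.60) than on arrays numbered 1 (1.92, 1.32 and 0.37). This difference between array numbers was not tested, since each holds 1 array per group. At 2 h the values were 1.00, 0.69 and 0.33, and at 1 h they were 0.44, -0.05 and -0.63, none of which passed with or without the block.

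Gclm was called later than Gclc, at 4 h with the block and at no time in the main fit, and the difference between the genes was not tested. At 1 h Gclc already stood at 2.76, while the highest of the 3 Gclm values was 0.44, with a 95% interval from -0.57 to 1.45. Against 1 h directly, the 4 h signal of Gclm was higher by 1.76, 1.74 and 2.11 for S65555_at, rc_AI233261_i_at and S65555_g_at. With the block all 3 passed (limma adjusted p = 0.0303, 0.0319 and 0.0341), and without it none did (adjusted p = 0.181, 0.314 and 0.272).

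The promoters of the ligase subunits are shown because Gclc and Gclm encode the parts of 1 enzyme. Both were called as higher at 4 h, Gclm with the block and not in the main fit. RefSeq's promoter table for build GRCr8 holds 3 of the 4 members, Gclc, Gclm and Gss, as windows of 250 bases before to 50 after the gene's start. Both sequences lie on the plus strand and read 5′ to 3′. Capitals mark every match, on either strand, to the motifs searched: the ARE core TGACNNNGC, the AP-1 site TGANTCA, the CRE TGACGTCA, the GC box GGGCGG and the TATA box TATAAA.
Gclc, chr8:87510226-87510525: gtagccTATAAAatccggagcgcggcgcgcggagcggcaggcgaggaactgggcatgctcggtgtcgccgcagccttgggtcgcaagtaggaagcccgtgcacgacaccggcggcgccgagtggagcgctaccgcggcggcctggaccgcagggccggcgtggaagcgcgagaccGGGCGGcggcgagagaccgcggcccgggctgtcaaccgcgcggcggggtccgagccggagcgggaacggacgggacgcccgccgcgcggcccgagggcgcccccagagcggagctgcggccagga
Gclm, chr2:213031885-213032184: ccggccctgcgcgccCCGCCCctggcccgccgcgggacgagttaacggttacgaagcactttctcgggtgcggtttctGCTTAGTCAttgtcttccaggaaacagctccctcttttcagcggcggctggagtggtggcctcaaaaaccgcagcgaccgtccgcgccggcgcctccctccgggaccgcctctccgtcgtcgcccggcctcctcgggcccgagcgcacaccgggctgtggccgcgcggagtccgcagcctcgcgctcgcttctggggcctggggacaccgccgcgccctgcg

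The Gclm window held 1 match to the ARE core, written GCTTAGTCA in the window, which reads TGACTAAGC on the other strand and begins 172 bases before the gene's start. Of 33469 rat promoter windows of this length, 12.1% held such a match. Gclm also held a GC box on the minus strand, and Gclc held a GC box 75 bases and a TATA box 244 bases before its start, motifs found in 33.1% and 14.2% of windows. The Gss window held none of the 5 motifs. No match overlapped another, and sequence outside these windows was not searched. The AP-1 site and the CRE, found in 7.33% and 1.83% of windows, were in none of the 3. The files hold no measurement of factor binding.

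**Figure D2:**
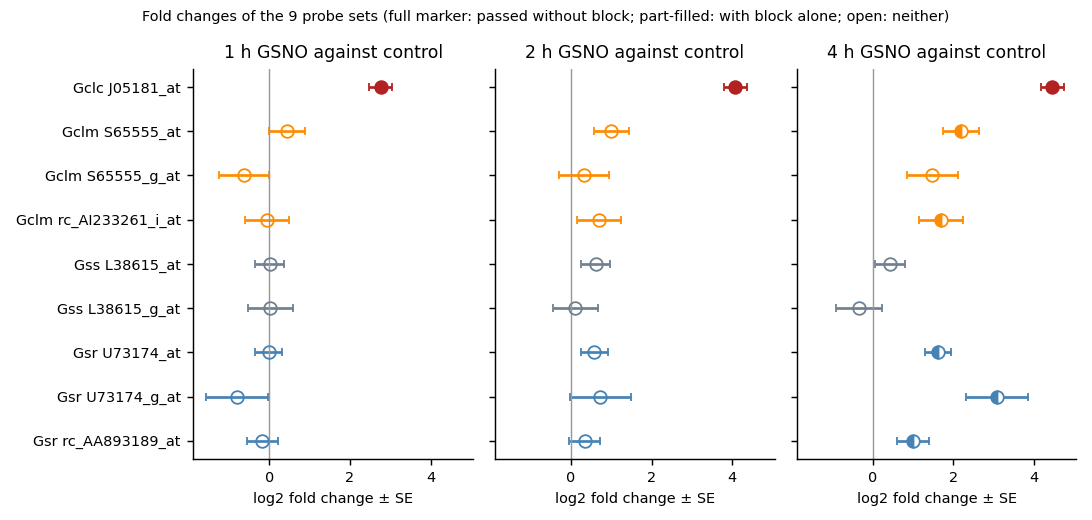
Log2 fold change against control (horizontal axis, ± SE of the limma fit without a block) of the 9 probe sets at 1 h, 2 h and 4 h. Gclc is the 1 filled marker at each time. At 4 h the part-filled markers are 2 of the 3 Gclm and all 3 Gsr probe sets, which passed with the replicate block alone.

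Glutathione reductase was higher at 4 h in all 3 of its probe sets. Probe set rc_AA893189_at read 291 and 392 in control cells, 229 and 386 at 1 h, 386 and 489 at 2 h, and 504 and 963 at 4 h. U73174_at read 186 and 134 in control cells, 173 and 141 at 1 h, 225 and 272 at 2 h, and 413 and 676 at 4 h. In both, the 4 h arrays lay above the control arrays and the 1 h arrays overlapped them.

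U73174_g_at, from the same record as U73174_at, gave low signals in control cells and at 1 h. It read 23.5 and 84.5 in control cells, 32.2 and 8.02 at 1 h, 32.0 and 224 at 2 h, and 408 and 773 at 4 h. It reached its array's 40th percentile on 1 of 2 control arrays, 0 of 2 at 1 h, 1 of 2 at 2 h and 2 of 2 at 4 h. The filter asked for 2 of 8 arrays, so it entered the tests through 1 control array and arrays at 2 h and 4 h. Its fold changes start from a level near the bottom of the scale, and the offset added before log2 sets much of their size.

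The log2 fold change of Gsr at 4 h was 1.00 ± 0.39 (SE) for rc_AA893189_at, 1.62 ± 0.33 for U73174_at and 3.09 ± 0.77 for U73174_g_at. Without the block none passed (limma adjusted p = 0.358, 0.0634 and 0.11), and with it all 3 did (adjusted p = 0.0245, 0.00995 and 0.0107). Both array numbers gave a positive value for each: 0.75, 1.07 and 3.26 on arrays numbered 1, and 1.25, 2.17 and 2.91 on arrays numbered 2. At 2 h the values were 0.34, 0.58 and 0.73 and at 1 h -0.17, -0.01 and -0.80, and none passed in either fit. From 1 h to 4 h, with the block, all 3 rose (1.17, 1.63 and 3.89, adjusted p = 0.0168, 0.0145 and 0.00526).

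Glutathione synthetase showed no change that passed. The dimmer Gss probe set, L38615_at, read 118 and 104 in control cells, 94.96 and 131 at 1 h, 216 and 151 at 2 h, and 201 and 121 at 4 h. The 2 h and 4 h arrays lay above the control arrays, at 4 h only just so for array number 2. Its log2 fold change was 0.01, 0.62 and 0.43 at 1, 2 and 4 h (limma adjusted p = 1.00, 1.00 and 0.717, and 0.999, 0.539 and 0.491 with the block).

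The brighter Gss probe set, L38615_g_at, read 375 and 631 in control cells, 359 and 684 at 1 h, 415 and 669.8 at 2 h, and 684 and 208 at 4 h. Up to 2 h each array number kept its own level. At 4 h the arrays crossed, with a log2 fold change against control of 0.83 for number 1 and -1.51 for number 2. The mean, -0.34, had a 95% interval from -1.64 to 0.96 without the block (limma adjusted p = 0.883, and 0.741 with the block). For L38615_at the interval at 4 h was -0.40 to 1.26. The Gss probe sets came from a single sequence record and gave values of opposite sign at 4 h.

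**Figure D3:**
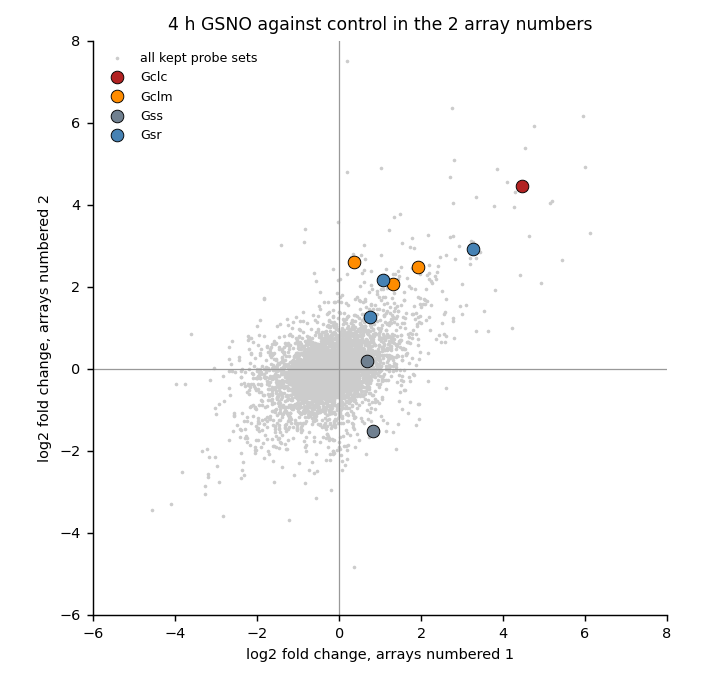
Log2 fold change at 4 h against control on arrays numbered 1 (horizontal) and numbered 2 (vertical) for all 5877 kept probe sets (grey) and the 9 members (coloured by gene). Gclc lies near equal values of 4.47 and 4.44, the Gclm points lie above the diagonal, and 1 Gss point lies at 0.83 and -1.51.

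As a group, the median log2 fold change of the 9 probe sets was -0.01 at 1 h, 0.62 at 2 h and 1.62 at 4 h, beside -0.05, -0.06 and -0.16 over all kept probe sets. The members were chosen with earlier results of these data known, and some of their probe sets share a sequence record. The group values therefore describe these probe sets and are no test of them as a group. The count of member probe sets with both exposed arrays above both control arrays was 1 at 1 h, 6 at 2 h and 8 at 4 h, where 10.1%, 12.9% and 13.4% of all kept probe sets did so. The 1 member with both arrays below was S65555_g_at at 1 h, where 13% of all kept probe sets were. The exception at 4 h was Gss L38615_g_at. In the F test over the 3 times, limma called 1 of 9 without the block, with 1.14% of all kept probe sets called, and 5 of 9 with it, with 5.94% called.

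For 4 h against 1 h, 0 of 9 were called without the block, although 7 had an unadjusted p under 0.05 (531 of 5877 over all kept probe sets), and 7 of 9 were called as higher with it. The shares of all kept probe sets called were 0.476% and 5.1%, and 2.65% were higher with the block. The share called as higher without the block was 0.204%. For 2 h against 1 h and 4 h against 2 h, limma called 0 of 9 in either fit, and over all kept probe sets it called 0% without the block, and 0.034% (all higher) and 0.544% (0.204% as higher) with it. The members with an unadjusted p under 0.05 there were 1 and 3 without the block and 3 and 6 with it. Over all 5877 kept probe sets, 164 and 330 were under that unadjusted threshold without the block, and 431 and 752 with it.

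The count of 6 at 4 h depended on single arrays. With the block, it was 3 without the 4 h array numbered 2 (Gclc, Gclm S65555_at and Gsr U73174_g_at) and 8 without the 4 h array numbered 1. It was 2 without either control array: Gclc and Gsr U73174_at without number 1, and Gclc and Gclm S65555_at without number 2. Among the 8 called without the 4 h array numbered 1, Gss L38615_g_at was lower. With the experiment recorded for each array as the block instead, Gclc and Gsr rc_AA893189_at were called at 4 h (limma adjusted p = 0.000504 and 0.0489). The Gclm probe set S65555_at and Gsr U73174_at then gave adjusted p = 0.058 each. Gclc was called at 2 h and 4 h in every one of these fits.

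The arrays numbered 1 and 2 were scanned on 2 days with 2 fluidics settings and came from 3 chip lots, per the array records. Among arrays numbered 1, the 1 h array alone was of its lot, so lot and exposure cannot be told apart there. By the recorded experiment, the control and 2 h arrays numbered 1 shared one, and the 1 h and 4 h arrays another. All arrays numbered 2 shared a further one. On arrays numbered 1, experiment and exposure therefore cannot be told apart at 1 h and 4 h against control, and the replicate block does not remove this. Over all non-control probe sets, array medians lay between 100.0 and 141 signal units. Of 8 smooth muscle markers measured, 6 were above the 40th percentile on all 8 arrays (Acta2, Myh11, Tagln, Cnn1, Myl9 and Cald1), Actg2 on 5 and Des, the desmin gene, on 0. The same count was 1 of 6 for endothelium (Flt1), 3 of 4 for fibroblasts and adventitia, 1 of 8 for leukocytes (Cd14) and 1 of 8 for lung epithelium (Sftpb). The summed signal of fibroblast markers was 1113 and 1711 at 4 h and 1163 and 2096 in control cells, and each of the 5 lists overlapped between these groups, lung epithelium only just (502.3 and 401 at 4 h, against 749.6 and 502.0 in control cells). Within both array numbers, 4 of the 5 sums were lower at 4 h than in control cells: smooth muscle (64750 and 41890, against 67125 and 48325), fibroblast, leukocyte (524 and 801, against 669.6 and 924) and lung epithelium. Their part in the results was not tested. In RNA from whole cultures, more transcript per cell and more cells that express it cannot be told apart.

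Around the 4 enzymes, 8 lists of glutathione and thiol genes held 126 genes, of which 67 had a probe set of their own here and 59 were tested, each by its brightest kept probe set. At 4 h, 3 of the 59 were called as higher and 0 as lower without the block, and 14 and 4 with it. With the block and arrays scaled to a common median, which moved the median of all kept probe sets at 4 h to 0.04 where it was -0.16, the counts were 14 and 2. Over all 3474 genes tested this way, 0.864% and 0.576% were called as higher and lower without the block, and 3.86% and 3.83% with it. At 1 h the block gave 1 higher and 1 lower, and limma without it 0 and 0, with 4 at an unadjusted p under 0.05 (7 with the block). At 2 h the counts were 5 and 4 with the block and 2 and 0 without, and 2 and 3 with the block and the common median scaling. The shares of all genes called as higher and lower were 0.403% and 0.0288% at 1 h and 0.633% and 0.23% at 2 h without the block, and 0.979% and 0.144% at 1 h and 1.76% and 1.01% at 2 h with it. The median log2 fold change at 4 h of the 59 was 0.00 and that of all genes -0.17.

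Genes that supply the building blocks were called in both directions. Of 11 genes tested, limma called 0 at any time without the block, while 2, 4 and 2 had an unadjusted p under 0.05 at 1, 2 and 4 h. With it, Slc3a2, the heavy chain shared by cystine and other amino acid transporters, rose at 4 h (log2 fold change 0.69, limma adjusted p = 0.0242) and at 2 h (0.85, adjusted p = 0.014, and 0.17 with arrays also scaled to a common median). Its other probe set gave 0.58 at 4 h (adjusted p = 0.0743). Mat2a, which makes S-adenosylmethionine from methionine, fell: its signal was 364 and 626 at 4 h, against 1289 and 2097 in control cells (-1.74, adjusted p = 0.000391 with the block). It fell with the block at 1 h and 2 h too (-1.55 and -1.82). Slc6a9, a glycine transporter, fell at 2 h alone with the block (-1.02, adjusted p = 0.0399, and 0.0751 with that scaling) and stood at 0.09 at 4 h. The list median at 4 h was -0.30.

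Among 8 genes of glutathione breakdown and export, limma called 0 at any time in either fit, 0 had an unadjusted p under 0.05, and the median at 4 h was -0.15. Of 7 glutathione-using peroxidases and related enzymes, Gpx4, which reduces lipid hydroperoxides, was the 1 called, at 4 h with the block (0.95, limma adjusted p = 0.00701). In the thioredoxin system, the parallel NADPH-driven thiol pathway, Txnrd1, the cytosolic thioredoxin reductase, read 4968 and 6576 at 4 h, against 1944 and 2461 in control cells. Its log2 fold change was 1.38 and that of its other probe set 2.14, both higher at 4 h with the block (adjusted p = 0.000497 and 5.00e-05). Both were called with the block at 2 h too (0.89 and 1.33, limma adjusted p = 0.0113 and 0.00131). With arrays also scaled to a common median, the adjusted p at 2 h was 0.123 and 0.0105. Txnip, a thioredoxin-binding protein, fell at 2 h with the block in both probe sets (-3.01 and -2.85, adjusted p = 0.000972 and 0.0162) and gave -0.57 and -0.66 at 4 h, where neither passed.

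Of 5 genes for enzymes that act on S-nitrosothiols, limma called 1, Cbr1, with the block. The list held 1 such call at 2 h and 1 at 4 h, and 0 at 1 h. Adh5, which encodes GSNO reductase, read 1929 and 2004 at 4 h, against 1393 and 2099 in control cells, a log2 fold change of 0.20 that did not pass (limma adjusted p = 0.836, and 0.56 with the block). Cbr1, a carbonyl reductase whose human counterpart can also reduce GSNO, read 7737 and 2413 at 4 h, against 1105 and 1009 in control cells (2.01, adjusted p = 0.195 without the block and 0.00295 with it). Its other probe set also passed with the block (1.58, adjusted p = 0.00845). The remaining 3 genes of this list were not called.

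Nfe2l2, the gene of NRF2, read 610 and 826 at 4 h, against 536 and 882 in control cells, and its log2 fold change was 0.04 (limma adjusted p = 0.983, and 0.922 with the block). Its other probe set gave 0.25, which did not pass. Of 4 NRF2 regulators tested, 0 were called at any time without the block. With it 1 was called as lower at 2 h and at 4 h, and 0 as higher. Maf, a leucine zipper factor, fell at 2 h and 4 h with the block (-1.30 and -1.29, adjusted p = 0.00414 and 0.00308), and of its other 2 probe sets 1 passed at 4 h (-1.36) and 1 did not (-1.20). Of 11 other NRF2 targets, 2 were called as higher and 0 as lower at 4 h without the block. With it 7 were called as higher and 0 as lower, among them Hmox1 (4.64), Nqo1 (4.59), Gsta1 (2.60) and Gstp1 (1.54). Of the 11, 1 was called as higher at 1 h with the block and 0 without it, and 2 at 2 h in either fit. None was called as lower at these times. Gsta1 was read by probe sets for a family of close relatives and is uncertain as a single gene.

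The genes that supply NADPH, the cofactor of glutathione reductase, gave 3 higher and 2 lower of 6 at 4 h with the block. Taldo1, transaldolase of the pentose phosphate pathway, read 3284 and 3248 at 4 h, against 1216 and 1327 in control cells, and was also called without the block (log2 fold change 1.35, limma adjusted p = 0.0432). Me1, cytosolic malic enzyme, gave 0.97 and Tkt, transketolase, gave 0.89 (adjusted p = 0.0391 and 0.0186 with the block). Of the other 4 Me1 probe sets 3 passed with the block and 1, at -0.41, did not, and the other Tkt probe set did not (0.62, adjusted p = 0.0817). Idh1, cytosolic isocitrate dehydrogenase, and Nnt, the mitochondrial transhydrogenase, fell with the block (-0.73 and -0.65, adjusted p = 0.0327 and 0.0425), and neither passed once arrays were also scaled to a common median (-0.51 and -0.43, adjusted p = 0.263 and 0.427). Nnt fell outside the rule for named genes and was named after its value was seen.

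**Figure D4:**
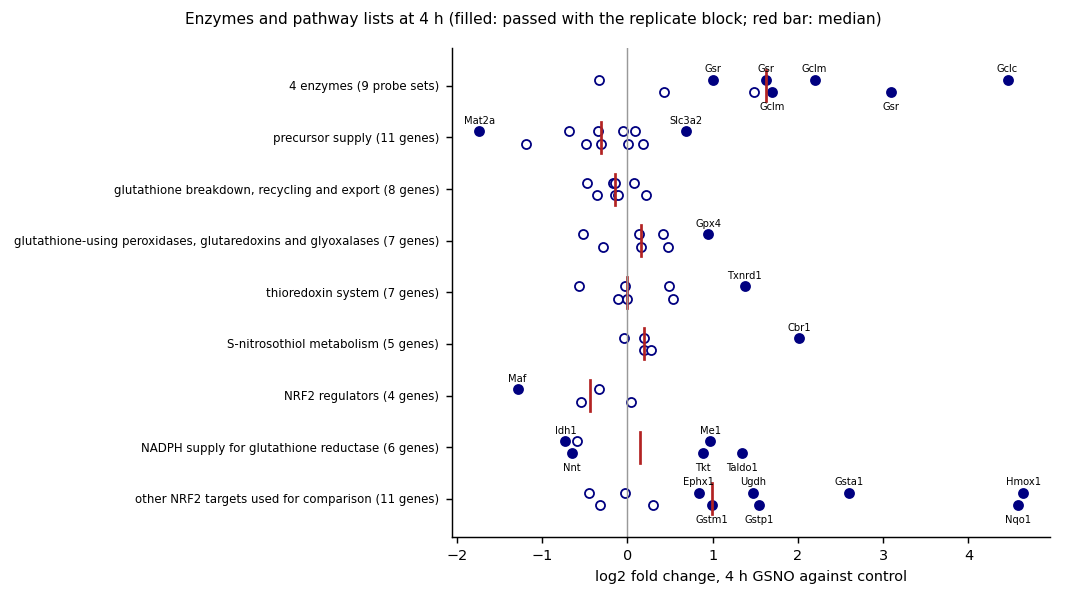
Log2 fold change at 4 h against control for the 9 probe sets of the 4 enzymes and for the genes of 8 lists (1 probe set per gene), with filled and named points for all that passed with the replicate block and red bars for medians. The enzymes' median is 1.62, that of the other NRF2 targets 0.99, and those of the remaining 7 lists lie between -0.43 and 0.20.

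The genes with the course closest to each enzyme's brightest probe set were found by the root mean square difference over 6 log2 fold changes, 3 times on 2 array numbers. For Gclc these were Crem (0.29), Hmox1 (0.64), Il6 (0.66), Cyp1b1 (0.77) and Pde4b (1.17). Here and below, each gene was entered by the closest of its kept probe sets, so the likeness need not hold for its others. Crem had 2 others, Cyp1b1 and Pde4b 3 each, and Hmox1 and Il6 1 each. Crem, a modulator of cAMP-responsive transcription, had log2 fold changes of 3.21, 4.13 and 4.30 at 1, 2 and 4 h, beside 2.76, 4.08 and 4.46 for Gclc. For Gclm S65555_at the closest genes were Kif3c (0.41), Por (0.43), Robo1 (0.45), Slc16a3 and Ptprn (both 0.49). Por encodes the cytochrome P450 reductase. For Gsr rc_AA893189_at they were Me1 (0.14), Cdc25b (0.15), Pcyt2 (0.16), Slc40a1 (0.19) and Map2k1 (0.22). Slc40a1 encodes the iron exporter ferroportin, and the Me1 value is from another probe set than the one above, with 0.99 at 4 h. For Gss L38615_g_at, which did not change by the test, the closest were Akr1b1 and Ppard (both 0.28), Mapk9 and Rpl3 (both 0.32) and Rpl6 (0.33). Its values at 1 h and 2 h lay between -0.06 and 0.14. Likeness to it therefore rests mostly on its opposite 4 h values of 0.83 and -1.51 on the 2 array numbers, not on a shared course over exposure.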

How the data were processed

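Expression was deposited as intensity on a linear scale, with 1 signal for each probe set on each array, calculated by the authors in GeneChip software 5.0 (per the series' design text). The trimmed mean signal (2% left out at each end) was 500.7 to 501 on all 8 arrays, so signals were used as deposited. Aligner and genome build do not apply; detection calls were not used here. Of 8799 probe sets, 59 control features were left out.

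An offset of 21.1 (median of the arrays' 20th percentiles) was added before log2. A probe set was kept when at or above the 40th percentile on at least 2 of 8 arrays (5877 of 8740, and all 9 members). limma 3.58.1 in R 4.3.3 fitted all 4 groups together with a variance trend (4 residual degrees of freedom, 3 with the block), and p-values are two-sided and Benjamini-Hochberg adjusted over 5877 probe sets. Signals are given per array, with 2 arrays per group, and that number limits the precision.

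Deviations from group means correlated at 0.387 to 0.569 between same-numbered arrays in all 6 pairs of groups, above 0.1, so same-numbered arrays deviated together. Same-numbered arrays also shared scan day and fluidics setting, so this cannot tell paired samples from a batch. Gene names come from GEO's platform annotation, with all 9 member IDs found in RefSeq. Named were every member probe set, Adh5, Txnrd1 and Nfe2l2, up to 4 genes per list called at any time, by size at 4 h, and the 5 genes closest in course to each enzyme's brightest probe set. Slc7a11 and Keap1 were not analysed here. Promoter sequences are RefSeq's (GRCr8). The members and lists were chosen with earlier results of these data known, and 5 kinds of alternatives, each with the block, were added after seeing the data. Other alternatives were the normalization, offset, filter, variance model, the groups fitted, the block and each array left out.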

Additional observations from a re-analysis of the deposited data

Results flagged for a closer look

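For 7 of the 9 probe sets the signal was higher at 4 h than at 1 h of GSNO, by the limma test with the replicate block. The log2 differences were 1.70 for Gclc, 1.76, 1.74 and 2.11 for the 3 Gclm probe sets, and 1.17, 1.63 and 3.89 for the 3 Gsr probe sets. None of these passed without the block, and fewer members passed with the recorded experiment as the block.

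Gss L38615_g_at moved in opposite directions at 4 h against control on the 2 array numbers, by 0.83 on arrays numbered 1 and by -1.51 on arrays numbered 2. This difference was not tested, because each array number holds 1 array per group. Groups of 2 arrays were too small to look for outlying arrays.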

How the results depend on the processing

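Gclc was called as higher at 2 h and 4 h under every alternative and every left-out array, with log2 fold changes of 3.80 to 4.35 and 4.18 to 4.73. At 1 h it ran from 2.49 to 3.04 and was lost without either 1 h array, unless the block was fitted. With the replicate block the number of member probe sets called stayed at 1 at 1 h and at 2 h, and was 6 at 4 h, 7 for 4 h against 1 h and 5 in the F test, where it was 1, 0 and 1 without the block. With the block and another choice (median scaling, quantile normalization, offset doubled, offset halved) the counts were 7, 6, 6 and 6 at 4 h, 7 each time for 4 h against 1 h, and 7, 6, 5 and 5 in the F test. The recorded experiment as a block gave 2, 4 and 2. Without the block, median scaling gave 3 at 4 h and 1 for 4 h against 1 h, quantile normalization gave 2 at 4 h, and both the doubled offset and the filter on 4 arrays gave 1 for 4 h against 1 h. Over all left-out arrays in both fits the counts ran from 0 to 1 at 1 h, 1 to 8 at 4 h, 0 to 1 for 2 h against 1 h, 0 to 2 for 4 h against 2 h, 0 to 8 for 4 h against 1 h and 1 to 6 in the F test.

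The cause of these changes was not tested, except that a left-out array leaves fewer samples. None of the fold changes that changed sign had passed the test as reported or with the block. At 1 h, the recorded experiment as a block turned Gclm rc_AI233261_i_at to 0.31, Gss L38615_g_at to -0.50, Gsr rc_AA893189_at to 0.051 and Gsr U73174_at to 0.14. Median scaling turned Gsr U73174_at to 0.0034 at 1 h and Gss L38615_at to 0.064 for 4 h against 2 h, and quantile normalization turned Gclm rc_AI233261_i_at to 0.0018 at 1 h, all with and without the block. With arrays left out, the 1 h values ran from -0.49 to 0.39 for Gclm rc_AI233261_i_at, -0.34 to 0.31 for Gsr U73174_at, -1.96 to 0.36 for Gsr U73174_g_at, -0.52 to 0.18 for Gsr rc_AA893189_at, -0.39 to 0.42 for Gss L38615_at and -0.46 to 0.51 for Gss L38615_g_at. At 2 h they ran from -0.13 to 0.80 for Gclm S65555_g_at, -0.37 to 1.83 for Gsr U73174_g_at and -0.26 to 0.48 for Gss L38615_g_at, which ran from -1.53 to 0.85 at 4 h, -0.40 to 0.57 for 2 h against 1 h, -1.64 to 0.74 for 4 h against 2 h and -1.56 to 0.82 for 4 h against 1 h. Gss L38615_at ran from -0.50 to 0.14 for 4 h against 2 h.

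Over all kept probe sets, the calls without and with the block were 31 and 79 at 1 h, 57 and 186 at 2 h, 90 and 466 at 4 h, 28 and 300 for 4 h against 1 h, 0 and 2 for 2 h against 1 h, 0 and 32 for 4 h against 2 h, and 67 and 349 in the F test. Without the block, leaving out 1 array moved the first 4 of these to 5 to 27, 19 to 52, 32 to 87 and 0 to 23, and the F test to 23 to 53. With the block they ran over 48 to 94, 81 to 225, 184 to 480 and 93 to 294. The recorded experiment as block gave 152 at 2 h, 165 at 4 h, 201 for 4 h against 1 h, 1 for 4 h against 2 h and 192 in the F test. Fitting only the groups compared gave 37 at 2 h and 0 for 4 h against 1 h, and no variance trend gave 4 for 4 h against 1 h, too. At 4 h, calls split into 56 higher and 34 lower as reported and 83 and 21 with median scaling. For 4 h against 1 h the split was 12 and 16, and 18 and 6 with that scaling. With the block the 4 h splits were 250 and 216, and 295 and 119 with the scaling, and those for 4 h against 1 h 156 and 144, and 193 and 86. That scaling moved the median of all kept probe sets at 4 h to 0.04 where it was -0.16. Fitting only the groups compared gives no F test.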
